A study of Mus musculus with 1 sample.

Results

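The peroxide defence genes described here are Prdx1, Prdx2, Prdx3, Prdx4, Prdx5, Prdx6, Cat, Gpx1 and Gpx4, taken by symbol as 9 of the 32285 genes in the count matrix. They were chosen by function, and the question put to them was which paralogue stem, erythroid and myeloid progenitors of mouse bone marrow use. The data were 1 single-cell RNA-seq library of lineage-negative, Kit-positive (Lin-Kit+) cells from femora and tibiae of C57BL/6 mice. The mice were Brd9 fl/fl controls: both Brd9 alleles carried loxP sites and no Cre deleted them. They had been given 3 injections of 20 mg/kg pIpC, an inducer of interferon, and cells were taken 8 weeks later, so every cell compared here shares that allele and that treatment. The labels also name a CD45.2(+) donor, a CD45.1(+) CD45.2(-) recipient given pIpC after a transplant, and a bulk RNA kit, while the series text and the study's methods give primary mice and a 10x Genomics 3' library, and which mice were used was not settled here. The number of animals behind the library is not given in the sources used here.

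Hydrogen peroxide is removed in cells by catalase, by glutathione peroxidases and by peroxiredoxins. Peroxiredoxins react with peroxide through a cysteine (the peroxidatic cysteine), and most are then reduced by thioredoxin. Prdx1 and Prdx2 encode cytosolic forms, Prdx3 the mitochondrial form and Prdx4 the form of the endoplasmic reticulum, and these 4 share the typical 2-Cys mechanism. Prdx5 encodes an atypical 2-Cys enzyme found in mitochondria, peroxisomes and cytosol, and Prdx6 encodes the 1-Cys enzyme, which also acts on phospholipids. Cat encodes catalase of the peroxisome. Gpx1 and Gpx4 encode selenoproteins that use glutathione, the latter acting on lipid hydroperoxides. Red cells carry oxygen bound to haem iron and are known for their large amount of peroxiredoxin 2, and myeloid cells make oxidants with the phagocyte oxidase and myeloperoxidase.

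The reactive site shows how alike the paralogues are where they act. The 24 coding bases that end at the codon of the peroxidatic cysteine, in capitals, are shown 5′ to 3′ for each peroxiredoxin, read from GENCODE M21 transcripts (GRCm38):
Prdx1: cctcttgactttacttttgtgTGT
Prdx2: ccactggacttcacttttgttTGC
Prdx3: cctttggatttcacatttgtgTGT
Prdx4: ccactggatttcacctttgtgTGT
Prdx5: cctggggcatttacacctggcTGT
Prdx6: ccacgggactttaccccagtgTGC

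Prdx2, Prdx3 and Prdx4 each shared 19 of the 24 bases with Prdx1, Prdx6 shared 16 and Prdx5 shared 14. The codon in capitals is number 52 of 199 in Prdx1, 51 of 198 in Prdx2, 109 of 257 in Prdx3, 127 of 274 in Prdx4, 96 of 210 in Prdx5 and 47 of 224 in Prdx6. In the glutathione peroxidases the same role falls to selenocysteine, whose codon reads as a stop codon (UGA in the RNA) inside the reading frame. The 24 bases that end there are shown with that codon in capitals:
Gpx1: attgagaatgtcgcgtctctcTGA
Gpx4: gtcaccaacgtggcctcgcaaTGA

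The codon is number 47 of 201 in Gpx1 and 73 of 197 in the Gpx4 transcript used. All 9 genes are annotated as protein coding on GRCm38. Prdx1 lies at chr4:116685544-116700822 (plus strand), Prdx2 at chr8:84969587-84974834 (plus), Prdx3 at chr19:60864051-60874556 (minus), Prdx4 at chrX:155323918-155340754 (minus) and Prdx5 at chr19:6906697-6910106 (minus). Prdx6 lies at chr1:161240112-161251219 (minus), Cat at chr2:103453849-103485160 (minus), Gpx1 at chr9:108338903-108340343 (plus) and Gpx4 at chr10:80047166-80056439 (plus). Prdx2 overlaps Junb and Rnaseh2a on the opposite strand, and Prdx5 overlaps Trmt112 on the opposite strand. The last 300 bases of the Prdx1 transcript were alike (at least 95% identity over at least 90 bases) to transcripts of 2 other annotated genes, Gm21399 and Gm7204, and those of Gpx4 to Gpx4-ps2. None of these 3 is counted in the matrix, so reads that fit a copy as well may be missing from Prdx1 and Gpx4, and their levels against other genes are less sure. The other 7 members had no such copy. Prdx6b, a related gene in the matrix, held 5 UMIs in all cells kept.

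The study's cell filter kept 7645 of 8817 barcodes, with 1592 to 49991 UMIs per cell (median 18696). Each UMI is 1 captured RNA molecule counted near its 3' end, so levels are given per 1000000 UMIs (CPM) with no division by length, and levels of different genes are compared on that scale. Members took 0.419% of all UMIs. Cells were sorted into gates by marker genes, none of them a member: 876 stem (Hlf, Mecom, Procr, Mllt3 and others), 1135 erythroid (Klf1, Epor, Car1 and others), 411 granulocyte-monocyte (all 5 of Mpo, Elane, Prtn3, Ctsg and Ms4a3, and no later list), 584 neutrophil (Cebpe, Fcnb, Gfi1, S100a8 and others), 1940 monocyte (Csf1r, Irf8, Ly86 and others), 347 megakaryocyte (Pf4, Itga2b and others) and 334 basophil or mast cells (Mcpt8, Prss34, Cpa3 and others). A further 1184 cells passed no list, 751 passed several and 83 were of other types. The stem list summed to 1038 CPM in the stem gate and to at most 144 CPM in the 6 other gates, the erythroid list to 4933 CPM in its gate and at most 178 CPM in the others, and the monocyte list to 2561 CPM in its gate and at most 214 CPM in the others. The neutrophil list summed to 2328 CPM in its gate with Ltf, a gene of later neutrophil granules, at 0 UMIs. Granule genes reached 45513 CPM there, 15227 CPM in the monocyte gate and 7679 CPM in the basophil or mast gate. They also summed to 1033 CPM in the stem gate, 683 CPM of it Prtn3, and to 783 CPM in the megakaryocyte gate. The gates were made with these lists, so the contrasts in them between gates follow from the rule. The T or NK list summed to 1373 CPM in the neutrophil gate, all of it Nkg7, with Cd3e, Trbc1, Trbc2, Cd3g and Ncr1 at 0 UMIs. A Kit UMI was found in 65.8% of cells kept.

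Median depth was 8972.5 UMIs per cell in the stem gate, 33278 in the erythroid, 20732.5 in the neutrophil and 21619 in the monocyte gate. Intervals are 95% and cover counting error only: with 1 library there is no replicate, no test and no p-value here, and how far another mouse would differ is not known. A member was called higher or lower where its ratio of CPM between gates was at least 2 or at most 0.5, with the share of all genes (at least 50 UMIs over both gates together) past the same limit given beside it. Changes between gates are in RNA per captured RNA, so more of a transcript and fewer of all others cannot be told apart.

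**Figure D1:**
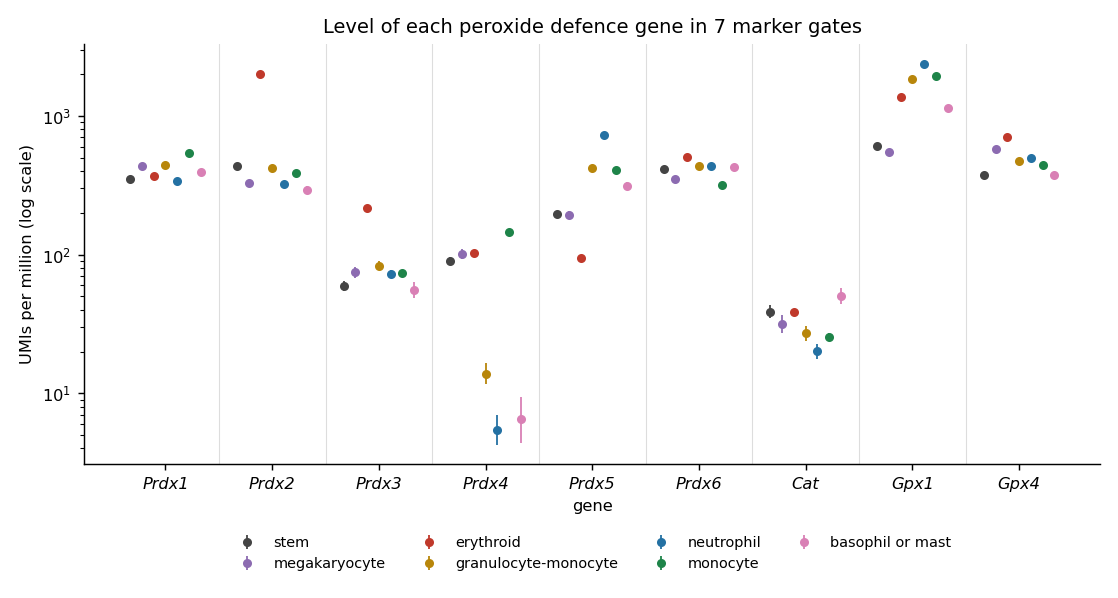
Level of each of the 9 genes (x axis) in CPM (y axis, log scale) in the 7 gates, 1 coloured point per gate with its 95% Poisson interval for counting error. Prdx2 and Prdx3 stand out in the erythroid gate, Prdx5 and Gpx1 in the neutrophil gate, and Prdx4 lies under 14 CPM in the granulocyte-monocyte, neutrophil and basophil or mast gates and at 90.5 CPM or more in the other 4.

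The 9 genes together made up 2561 CPM in the stem gate and 2650 CPM in the megakaryocyte gate, 3060 CPM in the basophil or mast gate, 4176 CPM in the granulocyte-monocyte gate, 4278 CPM in the monocyte gate, 4804 CPM in the neutrophil gate and 5399 CPM in the erythroid gate. The erythroid and neutrophil gates held the highest totals, with different genes in front. In the erythroid gate the 6 peroxiredoxins gave 3293 of the 5399 CPM, against 1545 CPM in the stem gate and between 1488 and 1910 CPM in the other 5. In the neutrophil gate Gpx1 alone gave 49.5% of the UMIs of the 9 genes, against 25.2% in the erythroid and 23.5% in the stem gate.

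Erythroid cells held the most Prdx2, and 3 of the 9 members were called higher and 1 lower than in stem cells (11.4% of 11539 genes were called higher and 34.6% lower). Prdx2, the main cytosolic peroxiredoxin of red cells, stood at 2008 CPM (95% Poisson interval, 1993 to 2022) in the erythroid gate and at 438 CPM (425 to 452) in the stem gate, a ratio of 4.58 (4.44 to 4.73). The call was lost in cells without a cycle UMI, at 1.51 after thinning (47 erythroid cells) and 1.02 at full depth (13 erythroid cells). The order of the remaining gates was granulocyte-monocyte at 420 CPM, monocyte at 390 CPM, megakaryocyte at 330 CPM, neutrophil at 323 CPM and basophil or mast at 294 CPM. The erythroid gate lay far above this band, while the intervals of the stem and granulocyte-monocyte gates overlapped, as did those of the megakaryocyte and neutrophil gates. Against the neutrophil gate the Prdx2 ratio was 6.22 (6.02 to 6.42), against the monocyte gate 5.15 (5.07 to 5.24) and against the megakaryocyte gate, the lineage nearest in origin, 6.08 (5.82 to 6.36).

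Single erythroid cells spread widely in Prdx2: the 10th percentile was 665 CPM, the median 1919 CPM and the 90th percentile 3428 CPM. Even the 10th percentile lay near the stem gate's 90th percentile of 718 CPM. After each cell was thinned to 5000 UMIs, a Prdx2 UMI was found in 98.6% of erythroid cells and 90.9% of stem cells, against 99.9% and 97.1% before thinning. Free RNA in droplets can carry transcripts into other cells. Haemoglobin UMIs, which cells outside the erythroid gate should lack, were found after thinning in 28.4% of stem, 14.4% of neutrophil and 17.7% of monocyte cells (48.2%, 49.5% and 53.7% before it). The part of free RNA in Prdx2 outside the erythroid gate was not tested.

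Prdx3, which serves mitochondria, followed Prdx2 at a lower level. It stood at 215 CPM (211 to 220) in the erythroid gate and between 55.5 and 83.3 CPM in the other 6, with 59.1 CPM (54.3 to 64.3) in the stem gate. The ratio of erythroid to stem was 3.64 (3.34 to 3.98), but 1.44 in the 13 erythroid cells without a cycle UMI, and to the neutrophil gate 2.96 (2.76 to 3.17). The megakaryocyte, monocyte and neutrophil gates could not be ordered, at 74.5, 74.1 and 72.8 CPM with overlapping intervals. After thinning, 64.6% of erythroid cells held a Prdx3 UMI and 23.1% of stem cells did (97.3% and 44.4% before thinning). Across the 7 gates Prdx2 and Prdx3 had a Pearson r of 0.95 on log2(CPM + 10), a description over 7 points from 1 library in which the erythroid gate stands alone.

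Because these 2 genes were high together, the windows around their starts are shown, from RefSeq on GRCm38.p6 (250 bases before the start and 50 after, on the gene's strand). Capitals mark matches to the letters CCACACCC, CCACGCCC, CCCCACCC or CCCCGCCC on either strand, which are of the kind that Krüppel-like factors such as Klf1 bind. The Prdx2 window is chr8:84969372-84969671 and the Prdx3 window is chr19:60874489-60874788:
Prdx2: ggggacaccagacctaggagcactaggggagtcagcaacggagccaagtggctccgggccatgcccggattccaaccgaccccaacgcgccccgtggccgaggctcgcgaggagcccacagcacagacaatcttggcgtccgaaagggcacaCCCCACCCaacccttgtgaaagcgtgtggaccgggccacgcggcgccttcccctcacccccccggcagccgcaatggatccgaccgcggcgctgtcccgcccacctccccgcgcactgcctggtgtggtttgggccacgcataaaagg
Prdx3: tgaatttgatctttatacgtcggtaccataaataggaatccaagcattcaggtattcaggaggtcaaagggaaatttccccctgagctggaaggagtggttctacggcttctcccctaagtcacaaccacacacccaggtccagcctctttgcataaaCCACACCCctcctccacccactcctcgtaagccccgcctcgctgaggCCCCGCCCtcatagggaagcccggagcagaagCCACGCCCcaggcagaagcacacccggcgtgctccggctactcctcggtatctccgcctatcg

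Prdx2 held 1 match and Prdx3 held 3. Of 11 member windows (8 of the 9 genes matched the table, Gpx4 with several starts, Prdx6 without an entry), 7 held these letters, as did 29.7% of all 32851 windows of 300 bases. The letters were in windows of Prdx1, Prdx2, Prdx3, Prdx5, Cat and Gpx4 and in none of Gpx1 and Prdx4, so they were not particular to the genes shown. The Gpx4 windows that held them overlap and share the same match. GATA with A or T before it and A or G after it, the letters bound by Gata1, was in 3 member windows, all of Gpx4 and overlapping in part, and in 29.8% of all windows. TGACNNNGC, the antioxidant response element, was in 1 member window (Prdx1) and 12.4% of all, TTGCNNAA (C/EBP) in 1 (Prdx3) and 10.8%, and GAGGAAGT (PU.1) in none and 3.20%. The pair of matches in Prdx1 for the first motif overlapped each other. A match is a run of letters, with no evidence of binding.

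Prdx5 was the member called lower in the erythroid gate, at 94.8 CPM (91.6 to 98.0) against 195 CPM (186 to 204) in the stem gate, a ratio of 0.487 (0.460 to 0.516). This ratio lay at the limit, and was 0.5005 with thinned cells and 0.514 under median-of-ratios scaling, which ends the call. Gpx1 was called higher, at 1360 CPM (1348 to 1372) against 603 CPM (587 to 619), a ratio of 2.26 (2.20 to 2.32). Gpx4 was just inside the limit at 707 CPM (699 to 716) and a ratio of 1.88 (1.82 to 1.95), with the erythroid gate the highest of the 7. In cells without a cycle UMI after thinning, Gpx4 was 494 CPM in erythroid and 359 CPM in stem cells. Its ratio was below 1 in the 13 erythroid cells without one at full depth. The 4 remaining members were near the stem level: the ratio was 1.06 (1.02 to 1.1) for Prdx1, 1.13 (1.05 to 1.22) for Prdx4 (0.195 in the 13 erythroid cells without a cycle UMI), 1.22 (1.18 to 1.27) for Prdx6 and 0.993 (0.883 to 1.12) for Cat.

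**Figure D2:**
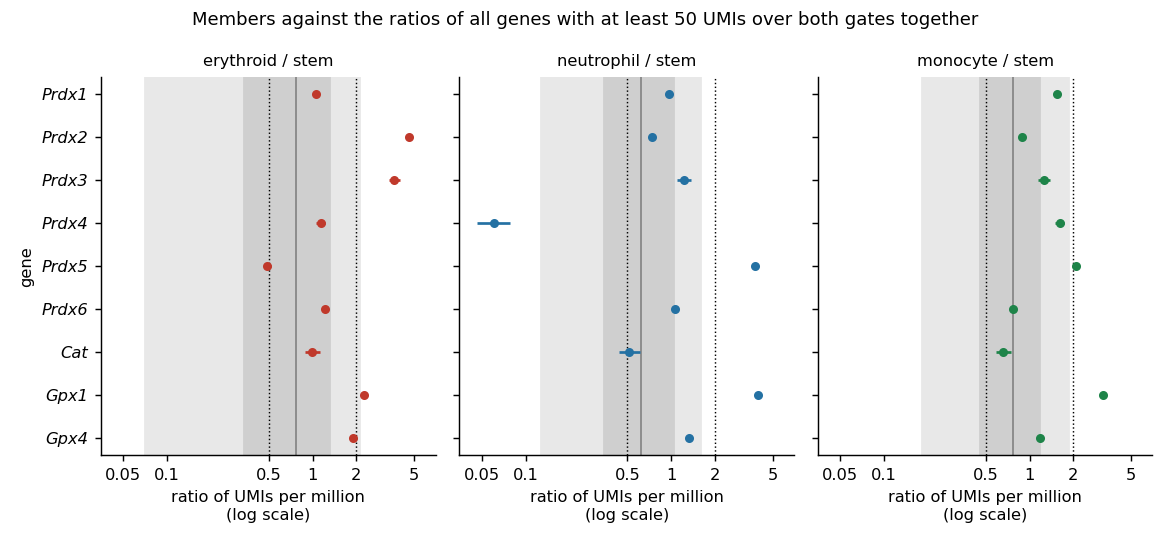
Ratio of CPM (x axis, log scale) of the erythroid, neutrophil and monocyte gates over the stem gate for each gene (y axis), as points with 95% counting intervals. The light and dark bands hold the 10th to 90th and the 25th to 75th percentile of all genes with at least 50 UMIs over both gates together, the grey line is their median and the dotted lines mark 0.5 and 2. Gpx1 lies above the light band in all 3 panels, and Prdx4 falls below it for neutrophils alone, at 0.061.

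Within the erythroid gate the members were read against haemoglobin, which red cells build up as they mature, in bins chosen after the data were seen. Over 4 bins of haemoglobin, with under 100, 100 to 1000, 1000 to 10000 and at least 10000 CPM (414, 251, 336 and 134 cells), Prdx2 read 1052, 1871, 2663 and 3653 CPM. Prdx6 read 706, 530, 340 and 217 CPM over the same bins. Prdx6 thus passed from the third highest member in cells with little haemoglobin to the sixth in those with most. Gpx1 read 986, 1224, 1650 and 2101 CPM and Prdx3 read 157, 213, 259 and 293 CPM. Prdx1 read 425, 375, 332 and 294 CPM, and Cat read 51.4, 39.5, 28.1 and 23.5 CPM. Prdx4 and Prdx5 kept between 79.5 and 113 CPM, and Gpx4 between 630 and 775 CPM. Haemoglobin UMIs are part of the denominator and made up 0.328% of all UMIs in the gate, and the median depth of the bins ran from 27954 to 37642 UMIs.

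**Figure D3:**
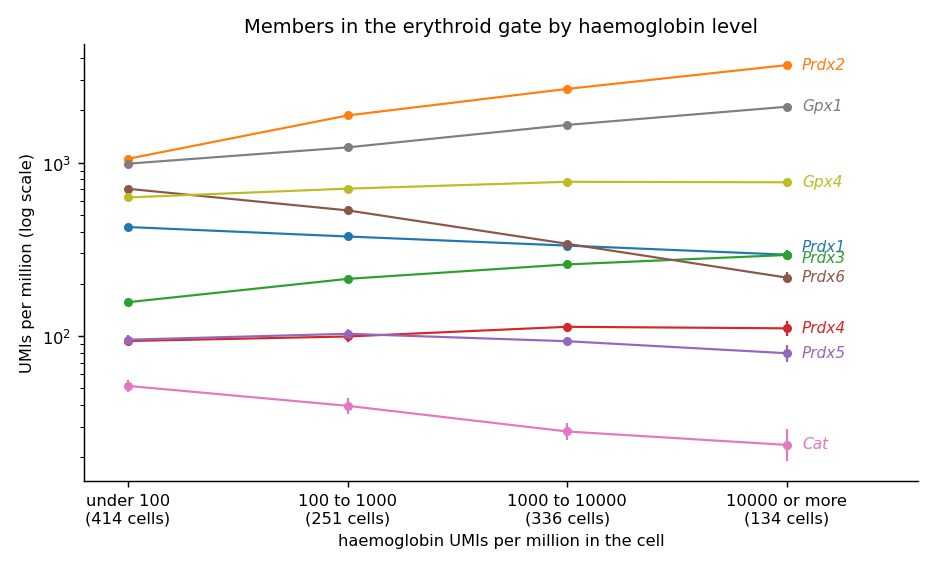
Level of each member in CPM (y axis, log scale) in erythroid cells grouped by their haemoglobin CPM (x axis, with the number of cells), as points with 95% Poisson intervals joined by lines. Prdx2, Gpx1 and Prdx3 climb from left to right while Prdx6, Prdx1 and Cat decline, and Prdx2 goes from 1052 to 3653 CPM.

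Neutrophil progenitors used Gpx1 and Prdx5 and nearly lacked Prdx4. Against the stem gate 2 of the 9 members were called higher and 1 lower (5.89% of 11011 genes were called higher and 39.1% lower). Gpx1, the cytosolic and mitochondrial glutathione peroxidase, was 2376 CPM (2349 to 2404) in the neutrophil gate, a ratio of 3.94 (3.83 to 4.06). The order of the other gates was monocyte at 1941 CPM, granulocyte-monocyte at 1854 CPM, erythroid at 1360 CPM, basophil or mast at 1144 CPM, stem at 603 CPM and megakaryocyte at 549 CPM, and no 2 neighbouring intervals overlapped. All 4 gates rich in granule genes lay above the stem and megakaryocyte gates by over 500 CPM.

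Prdx5 was 733 CPM (718 to 749) in the neutrophil gate, a ratio to stem of 3.77 (3.58 to 3.97). It was higher in all gates rich in granule genes: 424 CPM in the granulocyte-monocyte gate, 406 CPM in the monocyte gate and 314 CPM in the basophil or mast gate, against 195 and 194 CPM in the stem and megakaryocyte gates. The intervals of the first 2 of these overlapped, as did those of the last 2. After thinning, 97.8% of neutrophil cells, 61.4% of stem cells and 37.7% of erythroid cells held a Prdx5 UMI (100%, 83.9% and 91.8% before thinning, at unequal depth). The order of the shares after thinning is that of the levels.

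Prdx4, the peroxiredoxin that works beside disulfide formation in the endoplasmic reticulum, was 5.47 CPM (4.24 to 6.95), or 67 UMIs, in 584 neutrophil cells. The stem gate held 90.5 CPM (84.4 to 96.8), so the ratio was 0.061 (0.046 to 0.078). The gates fell into a group with Prdx4 and a group nearly without it. Monocytes held 146 CPM (142 to 150), the erythroid gate 103 CPM (99.3 to 106), the megakaryocyte gate 101 CPM (93.1 to 109) and the stem gate 90.5 CPM. The granulocyte-monocyte gate held 13.9 CPM (11.6 to 16.5) and the basophil or mast gate 6.57 CPM (4.4 to 9.44), the latter with an interval that overlapped that of neutrophils. Monocytes exceeded neutrophils 26.7 times (21 to 34.5), although both gates carry granule genes. After thinning, 47.3% of monocyte, 7.33% of granulocyte-monocyte, 3.98% of basophil or mast and 1.88% of neutrophil cells held a Prdx4 UMI (82.4%, 22.6%, 7.19% and 10.3% before thinning). A haemoglobin UMI was found after thinning in 12.2%, 26.6% and 14.4% of the cells of the last 3 of these gates, and the part of free RNA in their low Prdx4 values was not tested.

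Prdx4 and Prdx5 also ran opposite ways inside the monocyte gate. It was split, after the data were seen, at 10000 CPM of the granule genes. In the 667 cells below that level Prdx4 was 194 CPM (187 to 202) and Prdx5 293 CPM (284 to 303). In the 1273 cells at or above it Prdx4 was 124 CPM (120 to 128) and Prdx5 457 CPM (450 to 465). Prdx6 also differed, at 242 and 353 CPM, while Prdx1 was 545 and 534 CPM, with overlapping intervals. Median depth was 19588 and 22525 UMIs in the 2 sets.

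The other 6 members were inside the limit in neutrophils. Cat was 20.1 CPM (17.7 to 22.8), the lowest of the 7 gates, with a ratio to stem of 0.517 (0.438 to 0.610), just inside the limit. It was called lower at 0.489 as a mean over cells, at 0.378 in cells without a cycle UMI after thinning and at 0.088 in those without one at full depth (20 neutrophil cells). Prdx2 had a ratio of 0.736 (0.705 to 0.770), Prdx1 of 0.966 (0.922 to 1.01), Prdx6 of 1.06 (1.02 to 1.11), Prdx3 of 1.23 (1.11 to 1.37) and Gpx4 of 1.33 (1.27 to 1.39). The median ratio of all genes in this comparison was 0.621, so a ratio of 1 is above most genes. Median-of-ratios scaling gave 1.25 for Prdx1 and 0.951 for Prdx2, so no direction is given for Prdx1. In cells without a cycle UMI after thinning, Prdx6 was 446 CPM in neutrophil and 464 CPM in stem cells, so none is given for Prdx6.

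The neutrophil gate was split at 1000 CPM of Ltf, Camp, Ngp, Lcn2, S100a8 and S100a9 into 352 earlier and 232 later cells. No member of the 9 was called in either direction (0.414% of 8699 genes were called higher and 3.08% lower). Prdx5 had the largest ratio of the members, 1.45 (1.39 to 1.52), with 633 CPM in earlier and 919 CPM in later cells. Its ratio was at the 97.8th percentile of all genes in the comparison. Gpx1 was 2217 and 2670 CPM, a ratio of 1.2 (1.18 to 1.23), and Prdx1 was 371 and 279 CPM, a ratio of 0.752 (0.702 to 0.804). Prdx4 could not be told apart between them, at 48 and 19 UMIs and a ratio of 0.732 (0.406 to 1.27).

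Monocyte progenitors differed from stem cells in the same 2 genes. Gpx1, with a ratio of 3.22 (3.13 to 3.31), and Prdx5, with 2.09 (1.99 to 2.19), were the 2 members of 9 called higher, and none was called lower (8.53% of 11945 genes were called higher and 28.3% lower). Both comparisons share the stem cells, so their values are set side by side only. Prdx5 lay near the limit and was inside it, at 1.87, in the 252 monocyte cells without a cycle UMI after thinning against stem cells so chosen, and at 1.35 in the 31 without one at full depth. Prdx1, a cytosolic peroxiredoxin induced by oxidants in many cells, was highest in monocytes, at 538 CPM (531 to 545), a ratio of 1.53 (1.48 to 1.59). Prdx4 had a ratio of 1.61 (1.5 to 1.74), and 2.37 in those 31 cells. Prdx6 was lowest in monocytes of all gates, at 318 CPM (313 to 324).

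Erythroid and neutrophil progenitors differed in 4 of the 9 members (22.1% of 10798 genes were called higher and 15.3% lower in erythroid cells). Prdx4, with a ratio of 18.7 (14.7 to 24.2), Prdx2 and Prdx3 were higher in erythroid cells. In cells without a cycle UMI at full depth (13 erythroid and 20 neutrophil cells) Prdx4 was at 1.86, Prdx2 at 1.35 and Prdx3 at 0.930, and these 3 calls were lost. Prdx5 was lower, with a ratio of 0.129 (0.124 to 0.134). Gpx1 was inside the limit at 0.572 (0.564 to 0.581), but past it at 0.468 with median-of-ratios scaling and at 0.453 in the same 13 and 20 cells. Prdx1 and Prdx6 were close, at ratios of 1.1 (1.06 to 1.13) and 1.15 (1.12 to 1.19), and turned to 0.895 and 0.940 under that scaling, so no direction is given for them. Cat had a ratio of 1.92 (1.68 to 2.21), near the limit. It was called higher at 2.003 where 1 more marker was required, and at 16.7 in the 13 and 20 cells without a cycle UMI.

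As shares of the 6 peroxiredoxins, Prdx2 led in the stem and erythroid gates, Prdx5 in neutrophils, Prdx6 in basophil or mast cells, and Prdx1 in the other 3. The lead of Prdx2 was not kept in cells without a cycle UMI after thinning. There Prdx6 held 1233 and Prdx2 1177 UMIs in the stem gate, and 161 and 157 UMIs in the erythroid gate. In stem cells Prdx2 (28.4%), Prdx6 (26.6%) and Prdx1 (22.7%) were near each other. Erythroid cells gave 61.0% (95% Clopper-Pearson interval, 60.7 to 61.2) to Prdx2. Neutrophils gave 38.4% (37.8 to 39.0) to Prdx5, 33.9% in earlier and 46.2% in later cells, and 16.9% (16.4 to 17.4) to Prdx2. Monocytes gave 28.7% (28.4 to 29.0) to Prdx1, 21.7% to Prdx5 and 20.8% (20.5 to 21.1) to Prdx2, and megakaryocytes 29.5% (28.5 to 30.4) to Prdx1. In the basophil or mast gate Prdx6 led with 28.9%, and in the granulocyte-monocyte gate Prdx1, Prdx6, Prdx5 and Prdx2 lay between 23.0% and 24.4%. Prdx3 lay between 3.72% and 6.54% in the 7 gates.

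**Figure D4:**
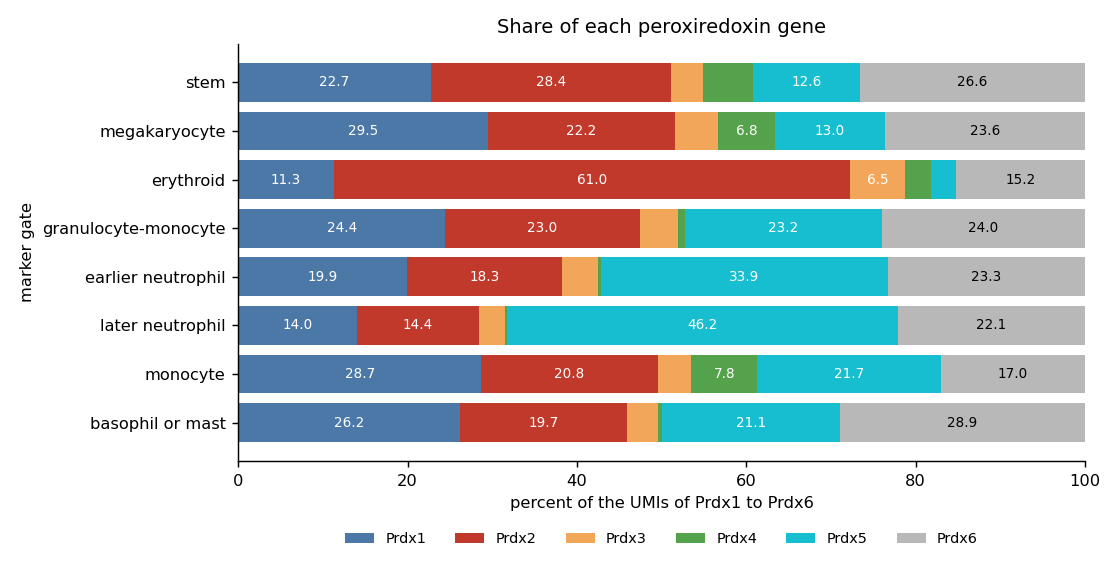
Share of each gene in the UMIs of Prdx1 to Prdx6 (x axis, percent, summing to 100) in the 7 marker gates, with the neutrophil gate divided into earlier and later cells. Shares of 6% or more are written in the bars. Prdx2 takes 61.0% in erythroid cells and Prdx5 46.2% in later neutrophil cells, while no gene takes more than 28.4% in the stem gate.

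The effective number of genes in use, which is 6 where all have equal shares, was 5.18 in monocytes, 5.12 in megakaryocytes and 4.95 in stem cells. It was 4.28 in neutrophils and 3.40 in erythroid cells. Among the typical 2-Cys genes Prdx1 to Prdx4 alone, Prdx2 made up 74.5% in the erythroid gate, 46.7% in the stem, 43.6% in the neutrophil and 34.0% in the monocyte gate.

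Ratios within a gate need no common denominator. Prdx2 per Prdx1 was 5.41 (5.31 to 5.51) in the erythroid gate, 1.25 (1.19 to 1.31) in the stem gate and between 0.725 and 0.952 in the other 5. For the 2 genes whose products reach mitochondria, Prdx5 per Prdx3 was 0.440 (0.423 to 0.458) in the erythroid gate, 3.29 (2.99 to 3.63) in the stem gate and 10.1 (9.40 to 10.8) in the neutrophil gate. In the erythroid cells without a cycle UMI after thinning Prdx5 was ahead, with 37 UMIs against 27 for Prdx3. In the same cells Prdx2 held 157 and Prdx1 82 UMIs. Cat UMIs per Gpx1 UMI were 0.0644 (0.0577 to 0.0717) in stem cells, 0.0284 (0.0269 to 0.0299) in erythroid cells, 0.0132 (0.0124 to 0.0140) in monocytes and 0.0085 (0.0074 to 0.0096) in neutrophils. Cat was the least abundant of Cat, Gpx1 and Gpx4 in all 7 gates. Gpx1 per Gpx4 was 0.945 (0.901 to 0.990) in megakaryocytes, the 1 gate in which Gpx4 led, 1.61 (1.54 to 1.68) in stem cells, 1.92 (1.90 to 1.95) in erythroid cells and 4.77 (4.64 to 4.90) in neutrophils.

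Prdx6, Prdx1, Cat and Gpx4 had no gate as far apart as Prdx2 in erythroid cells. Prdx6 was 502 CPM (495 to 509) in the erythroid gate, between 411 and 438 CPM in the granulocyte-monocyte, neutrophil, basophil or mast and stem gates, whose neighbouring intervals overlapped, and 351 and 318 CPM in megakaryocytes and monocytes. Prdx1 ran from 339 CPM in neutrophils to 538 CPM in monocytes. The stem and neutrophil gates overlapped in Prdx1, as did the erythroid and basophil or mast gates and the megakaryocyte and granulocyte-monocyte gates. Cat was highest in the basophil or mast gate, at 50.1 CPM (43.7 to 57.1), next 38.9 CPM in stem and 38.6 CPM in erythroid cells, with overlapping intervals. It was 31.6 CPM in megakaryocytes, 27.2 CPM in the granulocyte-monocyte gate and 25.7 CPM in monocytes. After thinning, a Cat UMI was found in 23.2% of basophil or mast and 10.3% of neutrophil cells (49.7% and 34.2% before thinning). A haemoglobin UMI was found after thinning in 26.6% and 14.4% of the same cells, and the part of free RNA in the Cat shares was not tested. Gpx4 followed the erythroid gate (707 CPM) with megakaryocytes at 581 CPM (562 to 600), neutrophils at 499 CPM, the granulocyte-monocyte gate at 471 CPM, monocytes at 440 CPM, and stem and basophil or mast cells at 375 and 372 CPM.

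**Figure D5:**
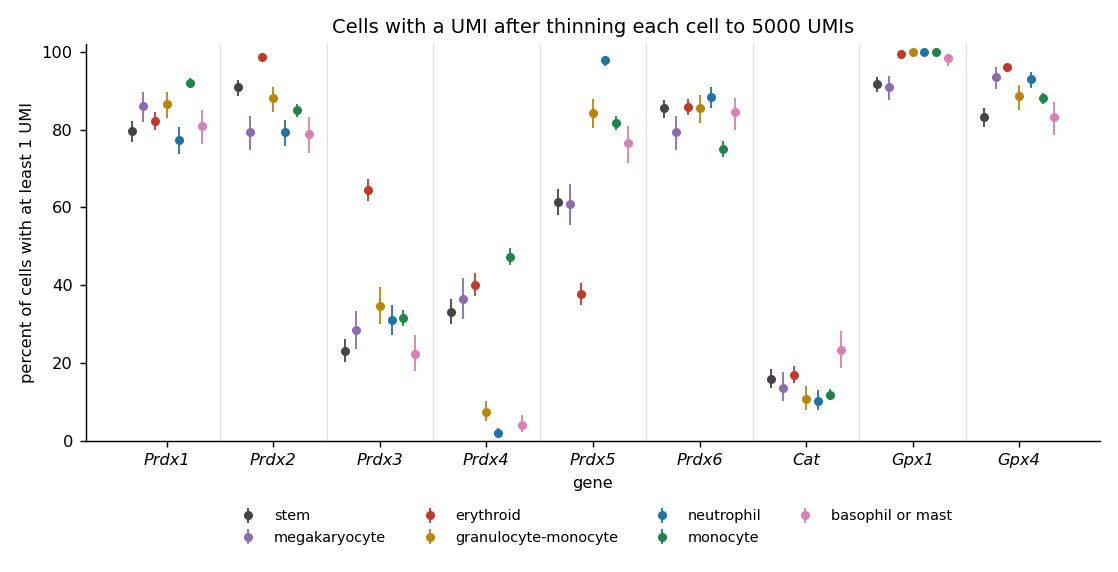
Percent of cells with at least 1 UMI of each gene (y axis) after every cell was thinned to 5000 UMIs, in the 7 gates (colours), with 95% Clopper-Pearson intervals. Gpx1 is found in over 90% of cells of every gate, Prdx3 in 64.6% of erythroid cells and at most 34.7% elsewhere, and Prdx4 in 1.88% of neutrophil against 47.3% of monocyte cells.

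Cycling cells were unequal between gates: after thinning, a UMI of Mki67, Top2a, Ccnb1 or Cdk1 was found in 38.6% of stem, 95.8% of erythroid, 75.5% of neutrophil and 87.0% of monocyte cells. Among cells with such a UMI, Prdx2 was 434 CPM in 334 stem and 2029 CPM in 1085 erythroid cells, and Prdx3 was 47.9 and 220 CPM. Among cells without one, Prdx2 was 443 CPM in 531 stem and 668 CPM in 47 erythroid cells. Within the erythroid gate Prdx2 was 3.04 times (2.59 to 3.58) as high with a cycle UMI as without, and in stem cells 0.979 times (0.892 to 1.08). In the cells without one, erythroid over stem was 1.51 for Prdx2, 1.76 for Gpx1 and 0.763 for Prdx5, all inside the limit, and 2.06 for Prdx3, a comparison chosen after the data were seen. In the same cells erythroid over neutrophil was 1.23 for Prdx3 and 0.414 for Gpx1. Prdx4 was higher in cells with a cycle UMI in the erythroid gate, at 2.78 times (1.46 to 6.12), and in the stem, monocyte and megakaryocyte gates, with ratios of 1.62 (1.31 to 1.99), 1.38 (1.17 to 1.65) and 1.71 (1.19 to 2.51). Prdx6 in stem cells went the other way, at 0.789 (0.715 to 0.870). Prdx5 and Gpx1 in neutrophils had ratios of 0.942 (0.856 to 1.04) and 1.0 (0.949 to 1.06). The part of the cycle in the differences between gates was not tested.

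Peroxiredoxins and glutathione peroxidases need thioredoxin, glutathione and NADPH to turn over, and 38 genes of these systems were read with the same limit. In erythroid over stem, 5 of the 35 with enough UMIs were called higher and 10 lower (11.4% and 34.6% of all genes). The 5 were the mitochondrial thioredoxin gene Txn2 (2.52) and its reductase Txnrd2 (4.19), both subunits of the enzyme that starts glutathione synthesis, Gclc (2.95) and Gclm (2.56), and Glrx5 (7.48), whose product works in iron-sulfur cluster assembly. Txn2 and Txnrd2 act on peroxiredoxin 3, which stood at 3.64 in the same comparison. Lower were Txnip (0.123), which binds and blocks thioredoxin, Sesn1 (0.362), Sesn3 (0.029), Srxn1 (0.441), which repairs overoxidised peroxiredoxins, Gpx7 (0.016), Gpx8 (0.0029 with 1 erythroid UMI, 7.3e-05 to 0.017), Idh1 (0.286), Bach1 (0.399), Foxo1 (0.114) and Pstk (0.415).

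In neutrophil over stem, 6 of 36 were called higher and 12 lower (5.89% and 39.1% of all genes). Glutathione reductase, Gsr, which returns glutathione to Gpx1, was 436 CPM in neutrophils and 42.2 CPM in stem cells, a ratio of 10.3 (9.31 to 11.5). The other 5 were Glrx (2.49), Gpx3 (3.79), the NADPH-forming Pgd (4.13) and Idh1 (2.57), and Sephs2 (2.20), which makes the selenium donor for selenoproteins. The 12 included 7 of the 10 thioredoxin-system genes, namely Txnrd1 (0.481), Txnrd3 (0.345), Srxn1 (0.112), Sesn1 (0.175), Sesn2 (0.138), Sesn3 (0.056) and Txnip (0.072). The other 5 were Gpx7 (0.048), Gpx8 (0.0088 with 1 neutrophil UMI, 0.00022 to 0.050), Bach1 (0.408), Foxo3 (0.214) and Foxo1 (0.052).

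In monocyte over stem, 5 of 37 were called higher and 13 lower (8.53% and 28.3% of all genes). Gsr had a ratio of 4.98 (4.50 to 5.53), Gpx3 of 3.62, Idh1 of 3.50, Pgd of 3.26 and G6pdx of 2.38. The 13 were Gpx8 (0.0025 with 1 monocyte UMI, 6.3e-05 to 0.014), Txnip (0.101), Srxn1 (0.127), Foxo1 (0.174), Sesn3 (0.228), Txnrd3 (0.273), Slc7a11 (0.294), Gpx7 (0.298), Foxo3 (0.333), Gclm (0.359), Sesn1 (0.371), and Sesn2 and Bach1 (both 0.396). Sod1 and Sod2, which form peroxide from superoxide, were inside the limit in all 3 comparisons with stem cells.

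In erythroid over neutrophil, 11 of 34 were called higher and 5 lower (22.1% and 15.3% of all genes). Higher were Sesn2 (7.24), Glrx5 (4.33), Gclm (4.24), Foxo3 (4.16), Txnrd2 (4.11), Srxn1 (3.94), Gclc (3.78), Sod1 (2.58), Foxo1 (2.18), Nfe2l2 (2.16) and Sesn1 (2.06). Lower were Pgd (0.300), Glrx (0.248), Gsr (0.137), Idh1 (0.111) and Gpx3 (0.0044 with 1 erythroid UMI, 0.00011 to 0.025).

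The genes whose levels followed a member most closely over the 7 gates were taken from 10172 genes with at least 500 UMIs, by Pearson r of log2(CPM + 10), given with no p since 7 gates of 1 library share depth and cells. Prdx2 was followed by Rabggtb (r = 0.995), Myo19 (0.993) and Pvt1 (0.991), and Prdx3 by Them6 (0.996), Txnl1 (0.995) and Lonp1 (0.994), the last 1 a mitochondrial protease gene. Prdx5 was followed by Ubtd1 (0.987), Stx18 (0.985) and Adssl1 (0.983). Adssl1 was 210 CPM in the neutrophil and 3.83 CPM in the erythroid gate, a wider range than that of Prdx5 itself. Gpx1 was followed by Svip (0.975), Selenoh (0.969), which also encodes a selenoprotein, and Mblac1 (0.966). Selenoh was 435 CPM in neutrophils, 140 CPM in stem cells and 111 CPM in megakaryocytes. For Gpx4 the nearest were Dhx29, Palb2 and Cct7 (0.972 to 0.977), for Cat Ccdc77, Trip4 and Ddx3x (0.975 to 0.979), for Prdx4 Zfp709, Dnajc7 and Gdap2 (0.955 to 0.970), for Prdx1 Mcmbp, Mpdu1 and Brip1 (0.934 to 0.953) and for Prdx6 Mettl26, Arel1 and Gm16867 (0.884 to 0.902).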

How the data were processed

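The measurement was 10x Genomics 3' single-cell RNA-seq of 1 library. What the authors deposited are whole-number UMI counts per gene and barcode, not normalized, from Cell Ranger 6.0.2 with the mm10 build. Barcodes were kept by the limits of the study's methods: between 1000 and 50000 UMIs, between 1000 and 6500 detected genes, and less than 7% of UMIs from mitochondrial genes. Scrublet in scanpy 1.11.5 (expected rate 6%) called 265 cells (3.47%) doublets, which were kept, and removed in an alternative.

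The members and gene lists were chosen with earlier results of these data known. A cell entered a gate if it held a minimum of distinct markers and of their summed CPM: stem 3 and 300, erythroid 5 and 1000, neutrophil 3 and 300, monocyte 4 and 500, megakaryocyte 3 and 1000, basophil or mast 4 and 1000, granulocyte-monocyte 5 and 10000. These limits were set after the marker distributions, not the members, had been seen. Asking for 1 more marker gave gates of 712 stem cells (against 876), 1102 erythroid (1135), 411 neutrophil (584) and 1832 monocyte cells (1940). Cells passing several lists got no gate. A split of the erythroid gate by stage is not reported here.

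UMIs were summed per gate and divided by all its UMIs, with exact Poisson intervals. Ratios of sums have exact conditional binomial intervals and shares Clopper-Pearson intervals, from scipy 1.17.1. Thinning drew 5000 UMIs per cell without replacement, and 99 shallower cells were left out of thinned values (11 stem, 3 erythroid, none neutrophil, 6 monocyte). The ratio was checked on simulated sums for erythroid over stem, where the interval lay above 1 for 50 of 50 genes raised 4-fold among 11539 and for 48 of 50 raised 2-fold. For neutrophil over stem it lay below 1 for 46 of 50 genes lowered 2-fold. The sums were drawn with counting error alone, for which the interval is built. They do not check the 2-fold call or differences between cells or mice. All 9 members are named in every gate, pathway genes where past 2-fold, and for each member the 3 genes most alike. Sequences come from GENCODE M21 and RefSeq, and copies were searched with blastn 2.17.0. Alternatives were other denominators, scalings, cell filters, gates and fold limits.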

Additional observations from a re-analysis of the deposited data

How the results depend on the processing

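With 1 library, counting error is the only error known. No paired analysis was possible because the design holds 1 sample, and no replicate could be left out. Under the 8 alternatives that kept the cycling cells, the 72 member ratios of each of the 4 comparisons between gates moved by factors of 0.796 to 1.35. The count past 2-fold for erythroid over stem was 2 without cells holding a cycle UMI, which left 13 erythroid, 20 neutrophil, 31 monocyte and 404 stem cells, and 1 without those holding one after thinning (47, 143, 252 and 531 cells, an alternative chosen after seeing the data). For monocyte over stem it was 5 at a limit of 1.5-fold and 1 in the latter cells. In the 13 erythroid cells Prdx2 over stem was 1.02, and Prdx3 over neutrophil turned to 0.930. The Prdx2 share of erythroid cells was 60.3% with all deposited barcodes or thinned cells, 61.4% with 1 more marker, 56.5% as a mean over cells, 27.9% without cycle UMIs, 33.2% without them after thinning and 74.5% of Prdx1 to Prdx4. In stem cells it was 29.4% as a mean over cells and 46.7% of Prdx1 to Prdx4. In neutrophils it was 16.1% with 1 more marker, 16.3% thinned, 14.9% without cycle UMIs, 16.3% without them after thinning and 43.6% of Prdx1 to Prdx4, and in monocytes 21.1% as a mean over cells, 24.8% without cycle UMIs, 22.3% without them after thinning and 34.0% of Prdx1 to Prdx4. The cause was not tested. The shares of all genes past the limit were 15.6% higher and 46.2% lower for erythroid over stem with no filter on low counts.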

Other observations

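The 7 gates held 5627 of the 7645 cells kept (73.6%). Outside them, 1184 cells passed no list, 751 passed several and 83 were of other types. Values are given here for the 83 cells only. In 24 eosinophil-list cells Gpx1 was 1960 CPM (1790 to 2141), Cat 80.0 CPM (48.9 to 124) on 20 UMIs, and Prdx4 held 1 UMI. In 31 dendritic-list cells Prdx4 was 130 CPM (94.5 to 173) and Prdx5 92.1 CPM (63.0 to 130), with overlapping intervals. In 14 B-list cells Gpx1 was 478 CPM (381 to 593) and Prdx4 80.7 CPM (44.1 to 135). In 14 T or NK-list cells Prdx4 held 0 of 106751 UMIs, with an upper limit of 34.6 CPM, and Prdx5 was 272 CPM (182 to 390).

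In 171 erythroid-list barcodes left out for a mitochondrial share of 7% or more, with a median of 4658 UMIs, Prdx2 was 1060 CPM (1001 to 1121), Prdx6 265 CPM and Gpx1 719 CPM, against 2008, 502 and 1360 CPM in the cells kept. In 128 erythroid-list cells at or over the upper limits, with a median of 55163 UMIs, Prdx2 was 1733 CPM (1703 to 1763).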
